A study of Homo sapiens with 12 samples.

Results

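The 9 genes described here encode the carrier protein FGFBP1, the fibroblast growth factor (FGF) ligands FGF2, FGF5 and FGF19, the FGF receptors FGFR1, FGFR2, FGFR3 and FGFR4, and the co-receptor KLB. They were taken by gene name from the deposited tables, 9 of 60612 genes, and were chosen with their levels and their change with co-culture already known. Their values are therefore given as a description, without p-values. RNA was sequenced from 12 libraries, 4 groups of 3, of human lines cultured in a tumor-on-a-chip device. The groups were HCCLM3 with LX2, HCCLM3 alone, LX2 with HCCLM3, and LX2 alone. HCCLM3 is a hepatocellular carcinoma line and LX2 is an immortalised line of hepatic stellate cells, and all 4 groups were labelled wild type. The comparison asks what growth with the partner line did to each line's FGF transcripts.

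FGF ligands leave the cell, bind heparan sulfate on cell surfaces and in the matrix, and activate receptor tyrosine kinases that signal largely through ERK. FGFBP1 binds stored FGF2 and carries it from heparan sulfate to receptors, whereas FGF19 is a hormone of the gut and liver that needs KLB beside FGFR4 to restrain bile acid synthesis in hepatocytes. FGFR4 is the main FGF receptor of hepatocytes, and mesenchymal cells such as stellate cells are known for FGFR1.

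Libraries held 65675929 to 68178411 counts in HCCLM3 with LX2, 68088914 to 77712308 in HCCLM3 alone, 64438991 to 69891842 in LX2 with HCCLM3 and 61836616 to 65314354 in LX2 alone. A gene without a count could stand at up to 0.0485 CPM (counts scaled to library size; 3 counts) in the smallest library, if each count is a fragment. Low counts bunched: 1044 to 1554 genes per library stood at exactly 4 counts, against 337 to 605 at exactly 3, so fewer fragments than counts may lie behind a low value and counting intervals are not given. Hepatocyte markers (15 genes) summed to 88.5 to 91.6 FPKM (fragments scaled by gene length and library size) in HCCLM3 with LX2 and to 24.9 to 26.7 FPKM in HCCLM3 alone. Stellate cell and fibroblast markers (15 genes) summed to 12.8 to 13.3 FPKM in LX2 with HCCLM3 and to 8.23 to 8.56 FPKM in LX2 alone, where COL1A2, COL6A3, SPARC, LRAT and POSTN were at 0. LRAT was also at 0 in LX2 with HCCLM3, TTR in HCCLM3 with LX2 and HP in HCCLM3 alone. Few genes carried these sums. A mean of 1 FPKM was reached by 5 of the 15 hepatocyte markers in HCCLM3 with LX2 and 3 in HCCLM3 alone. Of the 15 stellate cell and fibroblast markers, 3 reached it in LX2 with HCCLM3 and 4 in LX2 alone. Stellate cell and fibroblast markers summed to 12.8 to 20.2 FPKM in HCCLM3 with LX2 and to 14.0 to 15.5 FPKM in HCCLM3 alone. Markers of cells that neither label names differed as well. The 13 erythroid markers summed to 81.7 to 114 FPKM in HCCLM3 with LX2, against 0 to 0.0471 FPKM in HCCLM3 alone, and the 17 leukocyte markers to 45.9 to 50.1 FPKM, against 21.9 to 25.6 FPKM. A mean of 1 FPKM was reached by 5 erythroid and 6 leukocyte markers with LX2. In HCCLM3 alone 0 and 1 reached it, and 11 leukocyte markers were at 0. The 9 endothelial markers summed to 15.9 to 17.3 FPKM in HCCLM3 with LX2 and to 32.8 to 42.2 FPKM in HCCLM3 alone. Their part in the HCCLM3 results below was not tested. In LX2 the erythroid sum was 0.0502 to 1.35 FPKM with HCCLM3 and 0.0784 to 0.202 FPKM alone, and the leukocyte sum was 1.23 to 1.42 FPKM and 1.12 to 1.59 FPKM.

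In HCCLM3, 6 of the 9 genes passed the filter on low counts, and 3 of these passed the call threshold, an adjusted p under 0.05 in the edgeR quasi-likelihood fit over all genes. FGFR3 was called up and FGFBP1 and FGF2 were called down, where 21.7% of all genes tested were called. In LX2, 7 of the 9 passed the filter and 3 were called, FGFR2 up and FGF2 and FGFR1 down, where 31.9% of all genes tested were called. FGF5 and FGF19 were too low to test in either line, and FGFR2 had no count in HCCLM3. The choice of the genes used these contrasts, so nothing is read from the counts.

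**Figure D1:**
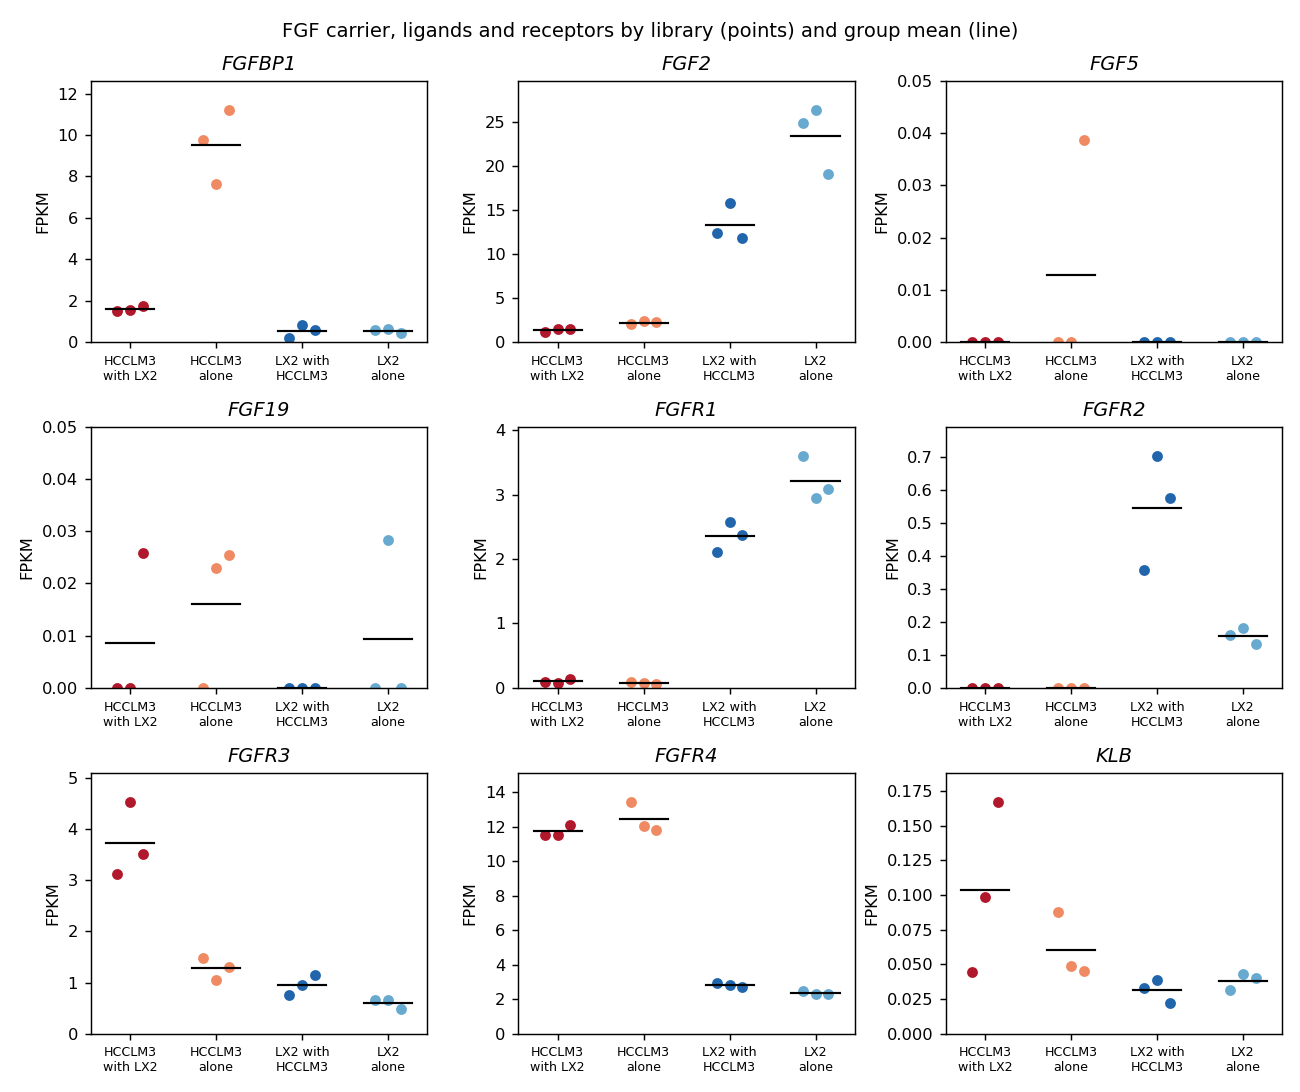
FPKM of each of the 9 genes in each library (points) and the group mean (line), with a separate linear axis per gene. FGFBP1 stood at 1.52 to 1.73 FPKM in HCCLM3 with LX2 and at 7.64 to 11.2 FPKM in HCCLM3 alone, FGFR3 moved the other way in HCCLM3, and FGFR2 was seen in LX2 libraries and in no HCCLM3 library.

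The stretches of 250 bases before the RefSeq start sites of FGFBP1, FGF2, FGFR2 and FGFR3 are printed because these 4 genes were called with the largest folds in either line. They are from GRCh38.p14, read 5′ to 3′ on the gene's strand: chr4:15938741-15938990 on the minus strand for FGFBP1, chr4:122826581-122826830 on the plus strand for FGF2, chr10:121598445-121598694 on the minus strand for FGFR2 and chr4:1793043-1793292 on the plus strand for FGFR3. Capitals mark matches to GGGCGG (the Sp1 box) or to GCGNGGGCG (the EGR1 motif), on either strand.
FGFBP1: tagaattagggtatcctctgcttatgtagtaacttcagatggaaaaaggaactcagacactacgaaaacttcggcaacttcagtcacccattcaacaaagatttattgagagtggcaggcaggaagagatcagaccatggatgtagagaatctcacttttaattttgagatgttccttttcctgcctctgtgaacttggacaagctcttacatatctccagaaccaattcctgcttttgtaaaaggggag
FGF2: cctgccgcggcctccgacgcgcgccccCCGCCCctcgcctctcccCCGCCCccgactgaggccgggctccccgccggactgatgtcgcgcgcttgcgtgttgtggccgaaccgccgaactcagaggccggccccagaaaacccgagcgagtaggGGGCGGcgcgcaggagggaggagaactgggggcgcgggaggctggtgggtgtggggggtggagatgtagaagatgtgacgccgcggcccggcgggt
FGFR2: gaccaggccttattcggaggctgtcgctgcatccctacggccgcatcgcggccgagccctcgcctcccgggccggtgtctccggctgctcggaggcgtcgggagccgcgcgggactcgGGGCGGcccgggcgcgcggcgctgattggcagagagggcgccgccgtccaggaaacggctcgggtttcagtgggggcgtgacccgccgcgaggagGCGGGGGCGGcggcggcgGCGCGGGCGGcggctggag
FGFR3: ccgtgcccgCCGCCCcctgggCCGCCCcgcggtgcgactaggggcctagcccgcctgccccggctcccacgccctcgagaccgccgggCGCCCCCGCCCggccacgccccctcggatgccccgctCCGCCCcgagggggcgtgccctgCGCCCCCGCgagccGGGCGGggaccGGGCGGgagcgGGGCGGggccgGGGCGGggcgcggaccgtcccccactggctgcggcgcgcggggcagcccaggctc
GGGCGG occurred 3 times in the FGF2 window, 3 times in the FGFR2 window and 8 times in the FGFR3 window, and it occurs in 42.6% of the 35116 windows of the same length before RefSeq start sites. GCGNGGGCG occurred 2 times each in the FGFR2 and FGFR3 windows, overlapping GGGCGG at both places in FGFR2 and at 1 of 2 in FGFR3, and occurs in 8.41% of windows. The FGFBP1 window held neither of them, and none of the 4 windows held TGANTCA (the AP-1 motif, in 6.57% of windows), NACGTG (a core of the HIF motif, in 18.5%) or, on the coding strand, TATAAA (the TATA box, in 6.80%). The FGFBP1 window was 40.8% G or C, against 75.2% for FGF2, 78.4% for FGFR2 and 86.8% for FGFR3, where the median window had 58%. These are matches of letters and not binding sites. The FGF2 start in RefSeq lies 123 bases inside the gene as the tables give it, the FGFR2 start lies 8 bases inside, and those of FGFBP1 and FGFR3 are the same in both. Windows were found for 7 of the 9 genes, all but FGF19 and FGFR1. FGFR2 had 5 windows, of which 1 is printed and described here, and FGFBP1, FGF2 and FGFR3 had 1 each.

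FGFBP1 (ENSG00000137440, chromosome 4, 15935577 to 15938740, minus strand), the carrier, had the largest change of the 9 genes. HCCLM3 with LX2 had 1.52, 1.56 and 1.73 FPKM (162, 172 and 187 counts), and HCCLM3 alone had 9.74, 7.64 and 11.2 FPKM (1222, 933 and 1226 counts). Every co-cultured HCCLM3 library was below every library alone, and the co-cultured libraries lay close together. The means were 1.60 ± 0.112 and 9.53 ± 1.79 FPKM (SD, n = 3 each). The edgeR fit gave a log2 fold change of -2.73 (SE 0.18), or 6.65-fold lower with LX2. Folds given here come from that fit on scaled counts and not from the FPKM means. Leaving out each library in turn gave log2 fold changes of -2.88 to -2.62. In LX2, FGFBP1 had 0.181, 0.826 and 0.606 FPKM with HCCLM3, against 0.609, 0.636 and 0.430 FPKM alone. These groups overlapped, and the co-cultured group held both the lowest and the highest library (log2 fold change -0.09, SE 0.52). The change in HCCLM3 minus that in LX2 was -2.68 on the log2 scale (SE 0.57).

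By distance between log2 profiles over the 12 libraries, the genes nearest to FGFBP1 were ZBED2 (distance 1.27), PDZK1 (1.50), GGT4P (1.65), RN7SL2 (1.75) and VSNL1 (1.80), where the median over 14054 genes was 5.73. ZBED2 had means of 0.405 FPKM in HCCLM3 with LX2 and 2.41 FPKM in HCCLM3 alone, and 0.00685 FPKM in LX2 with HCCLM3, and was at 0 in LX2 alone. PDZK1 had 1.21 and 3.52 FPKM in HCCLM3 with LX2 and alone, and 0.225 and 0.186 FPKM in LX2 with HCCLM3 and alone. These profiles share the libraries and their scaling, so the likeness is a description.

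FGF2 (ENSG00000138685, chromosome 4, 122826708 to 122898236, plus strand), a ligand for several FGF receptors and a known growth factor for stellate cells, fell in both lines. LX2 with HCCLM3 had 12.4, 15.9 and 11.8 FPKM (6405, 8796 and 6673 counts), against 24.9, 26.4 and 19.1 FPKM (13146, 13145 and 10028 counts) in LX2 alone. No library of LX2 with HCCLM3 reached the lowest library of LX2 alone. Means were 13.4 ± 2.20 and 23.5 ± 3.87 FPKM (SD, n = 3 each), and the fit gave a log2 fold change of -0.84 (SE 0.16), or 1.79-fold lower. HCCLM3 had lower levels, in a table of its own scaling: 1.18, 1.52 and 1.46 FPKM (632, 840 and 789 counts) with LX2, against 2.03, 2.41 and 2.25 FPKM (1281, 1474 and 1233 counts) alone. The groups did not overlap there either, with a log2 fold change of -0.85 (SE 0.13), or 1.80-fold lower. The changes in the lines differed by -0.04 on the log2 scale (SE 0.21).

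Part of FGF2 lies on the opposite strand of NUDT6, with 9540 bases shared, and the sources used here do not give whether counting used the strand, so reads from the shared stretch cannot be told apart. NUDT6 had 707, 670 and 675 counts in HCCLM3 with LX2 and 479, 526 and 424 counts in HCCLM3 alone, a log2 fold change of 0.50. In LX2 it had 548, 763 and 748 counts with HCCLM3 and 1684, 1671 and 1768 counts alone, a log2 fold change of -1.43. In LX2 the NUDT6 counts were far below those of FGF2 in every library, whereas in HCCLM3 with LX2 the counts of NUDT6 and FGF2 overlapped. The genes nearest to FGF2 in profile were ASPHD2 (distance 0.88) and H4C9 (0.91), where the median over genes was 5.57.

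FGF5, a secreted ligand known for ending the growth phase of hair, had 19 counts in replicate 3 of HCCLM3 alone and none in the other 11 libraries. That replicate also had 541 COL1A1 and 502 COL1A2 counts, against 16 and 20 of COL1A1 and none of COL1A2 in replicates 1 and 2. Replicates 2 and 3 of HCCLM3 with LX2 had 320 and 853 COL1A2 counts without an FGF5 count. The source of the FGF5 counts was not tested. FGF19 had 4 counts in replicate 3 of HCCLM3 with LX2, 4 each in replicates 2 and 3 of HCCLM3 alone, 4 in replicate 2 of LX2 alone and none elsewhere. Neither ligand was above the level at which low counts bunch in more than 1 library, so a change with co-culture was not detectable at this depth. KLB, the co-receptor that FGF19 needs, had 22, 49 and 81 counts in HCCLM3 with LX2, against 49, 27 and 22 counts in HCCLM3 alone. In LX2 it had 16, 19 and 12 counts with HCCLM3, against 15, 19 and 19 counts alone. The KLB groups overlapped in both lines (log2 fold change 0.61, SE 0.57, in HCCLM3 and -0.28, SE 0.39, in LX2).

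FGFR3 (ENSG00000068078, chromosome 4, 1793293 to 1808872, plus strand), a receptor best known for its part in limiting bone growth, rose in HCCLM3. HCCLM3 with LX2 had 3.13, 4.54 and 3.51 FPKM (1197, 1795 and 1361 counts), against 1.49, 1.05 and 1.298 FPKM (670, 463 and 511 counts) in HCCLM3 alone. The lowest co-cultured library was above the highest library alone. The means were 3.73 and 1.28 FPKM, and the fit gave a log2 fold change of 1.37 (SE 0.19), or 2.59-fold higher. In LX2, FGFR3 had 0.756, 0.961 and 1.14 FPKM with HCCLM3, against 0.657, 0.668 and 0.486 FPKM alone. These LX2 libraries did not overlap, but the log2 fold change of 0.63 (SE 0.20) missed the threshold. It passed with DESeq2, with counts divided by 4, and without replicate 1 of LX2 with HCCLM3 (log2 fold change 0.77), but without no other single library. FGFR3 was chosen with this contrast known, so these calls are a description. The change in HCCLM3 minus that in LX2 was 0.71 on the log2 scale (SE 0.30), which was not called. Nearest in profile to FGFR3 were THBS3 (distance 0.83) and AC005332 (ENSG00000277476, 0.93), where the median was 3.85.

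FGFR4 (ENSG00000160867, chromosome 5, 177086905 to 177098022, plus strand) was the most abundant receptor of HCCLM3 per length. It had 11.5, 11.5 and 12.1 FPKM in HCCLM3 with LX2, against 13.4, 12.02 and 11.8 FPKM in HCCLM3 alone. These groups overlapped (log2 fold change -0.25, SE 0.09), and the value was -0.08 with libraries scaled by their totals. LX2 had 2.96, 2.84 and 2.70 FPKM with HCCLM3, against 2.46, 2.31 and 2.29 FPKM alone. The LX2 groups did not overlap, and the log2 fold change of 0.24 (SE 0.07) lay just short of the threshold. It passed with DESeq2, with limma, with counts divided by 4, and in edgeR with DESeq2 size factors or library totals. It did not pass without the filter on low counts, with the replicate number as a block, or in any fit that left out a single library. The change in HCCLM3 minus that in LX2 was -0.52 on the log2 scale (SE 0.11). FGFBP1 and FGFR4 were the 2 of the 9 genes whose change was called as different between the lines, where 20.7% of all genes tested were called. Both were chosen with these changes known, so their calls are a description. In profile FGFR4 was nearest to ARHGDIA (distance 0.29) and POR (0.31), where the median was 4.47.

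FGFR1 (ENSG00000077782, chromosome 8, 38400215 to 38468834, minus strand), the receptor that FGF2 uses in mesenchymal cells, fell in LX2. LX2 with HCCLM3 had 2.10, 2.57 and 2.38 FPKM (2367, 3090 and 2907 counts), against 3.60, 2.95 and 3.09 FPKM (4117, 3187 and 3518 counts) in LX2 alone. The highest co-cultured library was below the lowest library alone, with a log2 fold change of -0.48 (SE 0.10), or 1.39-fold lower. In HCCLM3 it had 112, 93 and 170 counts with LX2, against 125, 100 and 84 counts alone, and the groups overlapped (log2 fold change 0.26, SE 0.30). LETM2 shares 9313 bases with FGFR1 on the opposite strand. It had 1028 to 1284 counts in HCCLM3 with LX2 and 1350 to 1604 in HCCLM3 alone, above FGFR1 in every HCCLM3 library, so the small FGFR1 counts of HCCLM3 cannot be told apart from LETM2 reads. In LX2, LETM2 had 166 to 215 counts with HCCLM3 and 165 to 198 alone, far below FGFR1. Nearest to FGFR1 in profile were UCN2 (distance 0.48) and CT83 (0.69), where the median was 7.53.

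FGFR2 (ENSG00000066468, chromosome 10, 121478332 to 121598452, minus strand), whose splice forms bind different ligands in epithelium and mesenchyme, rose in LX2. LX2 with HCCLM3 had 0.356, 0.702 and 0.575 FPKM (207, 436 and 364 counts), against 0.161, 0.180 and 0.132 FPKM (97, 102 and 78 counts) in LX2 alone. The groups did not overlap, with a log2 fold change of 1.74 (SE 0.28), or 3.34-fold higher. No HCCLM3 library had a count, which allows up to 0.0150 CPM over HCCLM3 with LX2 and 0.0135 over HCCLM3 alone (3 counts over the group). This limit takes each count as a fragment and is higher where a fragment gives several counts, as the bunched low counts leave possible. The tables are per gene, so splice forms were not resolved. In profile FGFR2 was nearest to INHA (distance 0.60) and PTP4A1 (0.84), where the median was 4.82.

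**Figure D2:**
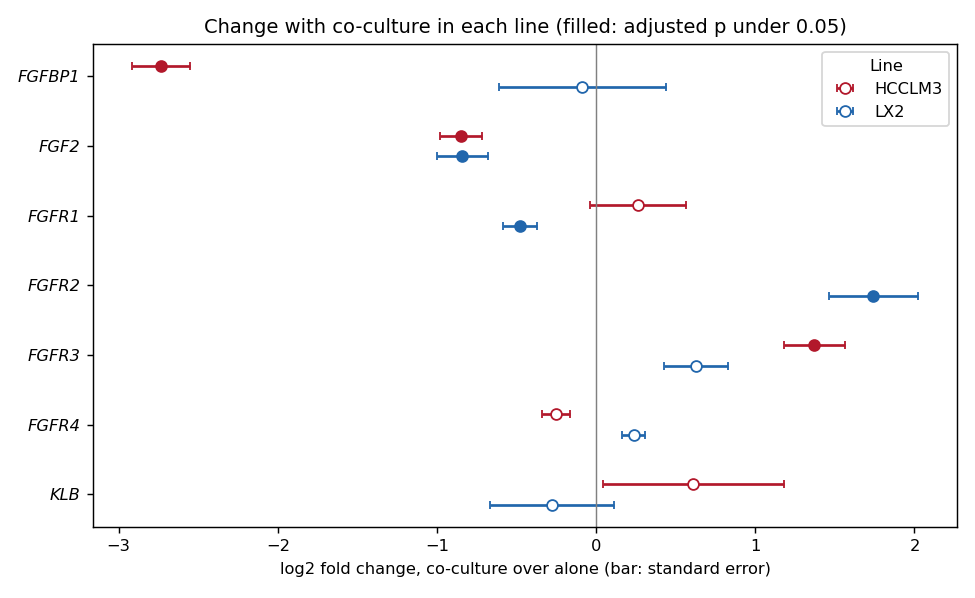
Log2 fold change of co-culture over growth alone for each gene tested in HCCLM3 and in LX2, with the standard error as a bar and filled points where the adjusted p was under 0.05. FGFBP1 lay at -2.73 in HCCLM3 and at -0.09 in LX2, whereas the FGF2 points of the lines lay at -0.85 and -0.84.

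Across the 9 genes, libraries with and without the partner did not overlap for 3 genes in HCCLM3 (FGFBP1, FGF2 and FGFR3), where 44.2% of all genes tested did not overlap. In LX2 this held for 5 genes (FGF2 and the 4 receptors), where it was 48.1% of all genes tested. Per length, the order of levels in HCCLM3 with LX2 was FGFR4, FGFR3, FGFBP1, FGF2, then FGFR1 and KLB, which overlapped. In HCCLM3 alone FGFBP1 stood above FGF2 and FGFR3, in the order FGFR4, FGFBP1, FGF2, FGFR3, with FGFR1 and KLB again overlapping at the bottom. In LX2 with HCCLM3 the order was FGF2, FGFR4, FGFR1, FGFR3, FGFR2, FGFBP1 and KLB, in which FGFBP1 overlapped both FGFR3 and FGFR2. In LX2 alone it was FGF2, FGFR1, FGFR4, FGFR3, FGFBP1, FGFR2 and KLB, in which FGFR3 and FGFBP1 overlapped.

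The make-up of the receptor transcripts differed with co-culture in both lines. In HCCLM3, FGFR4 made up 75.4% ± 3.58 of the summed FPKM of the 4 receptors with LX2 and 90.2% ± 1.07 alone (SD, n = 3 each). FGFR3 made up 23.9% ± 3.73 with LX2 and 9.25% ± 1.08 alone, and FGFR1 made up 0.683% with LX2 and 0.566% alone. The receptor sum itself was 15.5 ± 0.710 FPKM with LX2 and 13.8 ± 1.07 FPKM alone. In LX2 the leading receptor per length differed between the groups. FGFR4 made up 42.6% ± 4.62 and FGFR1 35.1% ± 1.18 with HCCLM3, whereas FGFR4 made up 37.3% ± 1.32 and FGFR1 50.7% ± 2.14 alone. FGFR4 was above FGFR1 per length in every library of LX2 with HCCLM3 and below it in every library of LX2 alone. FGFR3 made up 14.2% ± 2.33 with HCCLM3 and 9.53% ± 1.41 alone, and FGFR2 8.05% ± 2.11 and 2.50% ± 0.399. The LX2 sum was 6.68 ± 0.459 FPKM with HCCLM3 and 6.33 ± 0.480 FPKM alone. By counts, which are not per length, FGFR1 led in both LX2 groups, with 60.5% with HCCLM3 and 75.1% alone. In LX2 with HCCLM3, FGFR1 averaged 41.1 CPM and 2.35 FPKM, against 16.3 CPM and 2.83 FPKM for FGFR4. The change of leading receptor and the shares by FPKM thus rest on the gene lengths used for FPKM. In bulk samples of this kind, fewer cells that carry a transcript and less of it per cell cannot be told apart.

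**Figure D3:**
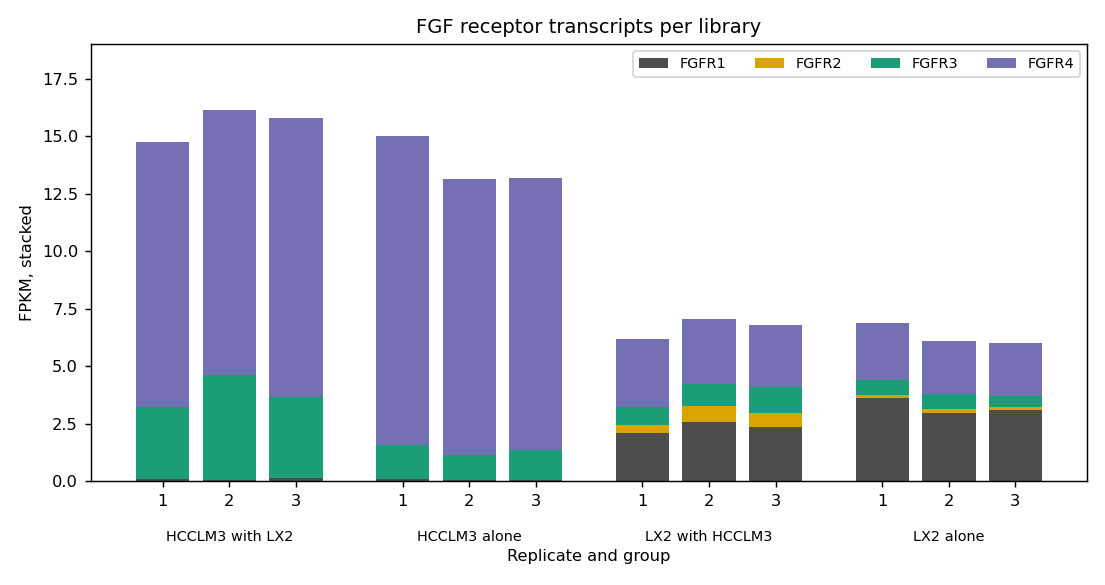
FPKM of FGFR1 to FGFR4 stacked for each library, grouped by line and culture, so that the bar height is the receptor sum. The FGFR3 layer was thicker in HCCLM3 with LX2 than in HCCLM3 alone, and in LX2 the FGFR1 layer was thinner and the FGFR2 layer thicker with HCCLM3 than alone.

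RNA of the partner line was gauged from genes that the partner alone had at 20 FPKM or more and the line alone had below 0.1 FPKM. Over 41 such genes, HCCLM3 with LX2 carried a median of 0.151% to 0.283% of the LX2 level, against 0% to 0.0365% in HCCLM3 alone. Over 57 such genes, LX2 with HCCLM3 carried 0.535% to 0.684% of the HCCLM3 level, against 0% in LX2 alone. The low values of a line alone are in part set by the choice of genes. If every gene were carried over at the highest of these shares, FGFR3 carried over from LX2 would add 0.00171 FPKM to HCCLM3, where the rise was 2.45 FPKM. FGFR4 carried over from HCCLM3 would add 0.0850 FPKM to LX2, where the difference was 0.479 FPKM, and FGFR3 0.00875 FPKM, where it was 0.349 FPKM. Shares may differ between genes, and the part of carried-over RNA in these differences was not tested.

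Around the 9 genes, 7 lists of 113 further genes of the FGF pathway were read from the same fits. In HCCLM3, 81 were tested, of which 8 rose and 15 fell, with a median log2 fold change of 0.14 against 0.033 for all genes tested. In LX2, 84 were tested, of which 18 rose and 26 fell, with a median of -0.03 against 0.015 for all genes tested. Leaving out 1 library at a time gave 3 to 9 up and 7 to 12 down in HCCLM3. In LX2 it gave 14 to 16 up and 14 to 20 down. Calls over all genes fell in every such fit, to 1918 to 2928 from 3924 in HCCLM3 and to 4934 to 5209 from 6281 in LX2. The part of particular libraries in these shifts was not tested, and the omissions with the largest shifts follow. In HCCLM3 the genes called down were 8 without replicate 1 and 7 without replicate 3 of HCCLM3 with LX2, and 7 without replicate 2 of HCCLM3 alone. The HCCLM3 genes called up were 5, 3 and 3 without replicates 1, 2 and 3 of HCCLM3 with LX2, and 5 and 4 without replicates 1 and 3 of HCCLM3 alone. In LX2 the genes called down were 17 and 14 without replicates 2 and 3 of LX2 with HCCLM3, and 17 without replicate 3 of LX2 alone. Scaling HCCLM3 libraries by their totals moved the median of all genes to 0.21 and the split of these calls to 15 up and 7 down. Of all genes, 10.1% were called up and 11.6% down in HCCLM3, and 15.4% up and 16.6% down in LX2. Adjusted p-values below are from the edgeR quasi-likelihood test over all genes.

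Transcripts of other FGF family genes, not all of which encode secreted ligands, were scarce, and none of 19 averaged 1 FPKM in any group. In LX2, 7 were tested, of which 3 rose (FGF12, FGF21 and FGF7) and 3 fell (FGF11, FGF17 and FGF18, of which the last 2 were picked for naming after their values were seen). FGF12, an intracellular member of the family that binds sodium channels, had 503, 578 and 426 counts in LX2 with HCCLM3, against 49, 43 and 64 counts in LX2 alone. Its log2 fold change was 3.17 (SE 0.20, adjusted p = 9.69e-05), with no overlap between the groups. FGF21, a liver hormone that also signals through KLB, had 49, 50 and 25 counts with HCCLM3, against 4, 7 and 8 counts alone (log2 fold change 2.59, SE 0.49, adjusted p = 0.00863). FGF7, a ligand that fibroblasts make for epithelial cells, had 40, 19 and 25 counts with HCCLM3 and 8, 2 and 2 counts alone. Its adjusted p was 0.0268, and it was lost without replicate 1 or 3 of LX2 with HCCLM3 or replicate 2 or 3 of LX2 alone (highest adjusted p 0.1001). FGF11 had 11, 11 and 14 counts with HCCLM3, against 144, 25 and 82 counts alone (adjusted p = 0.0158), and was lost without any of the 3 libraries of LX2 with HCCLM3 (highest adjusted p 0.0575). In HCCLM3, 4 were tested and 1 fell: FGF9 had 46, 8 and 23 counts with LX2, against 97, 116 and 111 counts alone (adjusted p = 0.0486). It was lost when any library but replicate 1 of HCCLM3 with LX2 was left out (highest adjusted p 0.138).

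Among 10 other carriers and co-receptors, FLRT2 and FLRT3 rose in HCCLM3 (6 tested), and FLRT3 and ANOS1 rose while CDH2 fell in LX2 (7 tested). FLRT2, a membrane protein that binds FGF receptors, averaged 0.283 ± 0.00889 FPKM in HCCLM3 with LX2 and 0.0887 ± 0.00452 FPKM in HCCLM3 alone (log2 fold change 1.50, SE 0.12, adjusted p = 0.000924). Its relative FLRT3 averaged 7.58 ± 0.512 FPKM with LX2 and 4.40 ± 0.738 FPKM alone (log2 fold change 0.62, adjusted p = 0.0171), a call lost without replicate 2 or 3 of HCCLM3 with LX2 or replicate 3 of HCCLM3 alone (highest adjusted p 0.0591). In LX2, FLRT3 had 57, 70 and 63 counts with HCCLM3, against 12, 4 and 8 counts alone (adjusted p = 0.00270). FLRT3 carried over from HCCLM3 at the highest share above would add 0.0301 FPKM, where the difference was 0.131 FPKM. The part of carried-over RNA in this call was not tested. ANOS1, the secreted protein lost in Kallmann syndrome, averaged 1.27 ± 0.105 FPKM in LX2 with HCCLM3 and 0.455 ± 0.0209 FPKM in LX2 alone (log2 fold change 1.44, SE 0.10, adjusted p = 0.000149). CDH2, the neural cadherin that can hold FGFR1 at the surface, averaged 4.45 ± 0.748 and 6.06 ± 0.805 FPKM (adjusted p = 0.0453), and was lost when any LX2 library but replicate 1 of LX2 with HCCLM3 was left out (highest adjusted p 0.130).

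Heparan sulfate proteoglycans, the surface and matrix proteins that hold FGF2, moved both ways. In HCCLM3, 1 of 11 tested rose and 3 fell. The syndecan SDC4 averaged 42.8 ± 1.96 FPKM with LX2 and 55.7 ± 1.63 FPKM alone (log2 fold change -0.54, SE 0.07, adjusted p = 0.00355). The glypican GPC1 averaged 34.8 ± 1.76 and 45.8 ± 2.28 FPKM (log2 fold change -0.56, SE 0.07, adjusted p = 0.00370). GPC6 rose (1.23 against 0.704 FPKM, adjusted p = 0.0271) and AGRN fell (30.0 against 33.9 FPKM, adjusted p = 0.0378). Both of these calls were lost in 5 of the 6 fits that left out 1 library, GPC6 in all but that without replicate 1 of HCCLM3 with LX2 and AGRN in all but that without replicate 2 (highest adjusted p 0.0963 and 0.121). In LX2, 5 of 13 tested rose and 4 fell. The syndecan SDC2 averaged 26.9 ± 1.23 FPKM with HCCLM3 and 12.7 ± 1.02 FPKM alone (log2 fold change 1.05, SE 0.07, adjusted p = 0.000103), and the basement membrane protein perlecan (HSPG2) averaged 4.64 ± 0.0661 and 2.89 ± 0.167 FPKM (log2 fold change 0.65, adjusted p = 0.000211). SDC1 averaged 10.3 ± 0.780 and 16.6 ± 0.437 FPKM (log2 fold change -0.72, adjusted p = 0.000395), and agrin (AGRN) averaged 54.5 ± 1.33 and 66.5 ± 1.72 FPKM (log2 fold change -0.32, adjusted p = 0.000448).

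Of the enzymes that build or trim heparan sulfate, 9 of 17 tested fell and 1 rose in LX2, with a median log2 fold change of -0.34. Of the 9, EXTL2 (log2 fold change -0.35, adjusted p = 0.0293) and EXTL3 (-0.20, adjusted p = 0.0249) were each lost without replicate 2 or 3 of either LX2 group (highest adjusted p 0.0853 and 0.0756). SULF2, a surface enzyme that removes 6-O-sulfate from heparan sulfate, averaged 8.06 ± 0.644 FPKM in LX2 with HCCLM3 and 22.3 ± 1.40 FPKM in LX2 alone (log2 fold change -1.50, SE 0.08, adjusted p = 3.49e-05). GLCE, the epimerase that makes iduronic acid, averaged 5.12 ± 0.355 and 9.48 ± 0.831 FPKM (log2 fold change -0.92, adjusted p = 0.000390). HS6ST3, a 6-O-sulfotransferase, averaged 9.22 ± 0.131 and 12.2 ± 0.242 FPKM (log2 fold change -0.43, adjusted p = 0.000218). EXT1, a subunit of the enzyme that extends the chain, was the gene that rose: 18.6 ± 0.291 FPKM with HCCLM3 and 12.5 ± 0.432 FPKM alone (log2 fold change 0.55, SE 0.04, adjusted p = 0.000106). In HCCLM3, 2 of 15 tested rose and 3 fell, with a median of 0.14. EXT1 averaged 14.6 ± 0.721 FPKM with LX2 and 17.0 ± 0.784 FPKM alone there (log2 fold change -0.39, SE 0.07, adjusted p = 0.00915, and 0.0729 with libraries scaled by their totals). The HCCLM3 calls on the 6-O-sulfotransferase HS6ST1 (log2 fold change -0.50, adjusted p = 0.0190), on EXTL3 (-0.37, adjusted p = 0.0230) and on EXTL2 (0.56, adjusted p = 0.0268), both relatives of EXT1, did not outlast leaving out each library in turn. HS6ST1 was lost without replicate 1 or 3 of HCCLM3 with LX2 or replicate 1 or 2 of HCCLM3 alone (highest adjusted p 0.0636). EXTL3 was lost without any library but replicate 3 of HCCLM3 alone, and EXTL2 without any but replicate 2 of HCCLM3 alone (highest adjusted p 0.0728 and 0.0935).

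Of 20 receptor signal transducers, 2 rose and 1 fell in HCCLM3, and 2 rose and 5 fell in LX2. CBL, a ubiquitin ligase that marks activated receptors for breakdown, had 1.62, 2.05 and 1.84 FPKM in HCCLM3 with LX2, against 0.425, 0.167 and 0.358 FPKM in HCCLM3 alone (log2 fold change 2.36, SE 0.34, adjusted p = 0.00513). Its LX2 libraries split within groups, with 4.67, 0.757 and 0.731 FPKM with HCCLM3 and 3.54, 0.612 and 3.58 FPKM alone. GRB14, an adaptor known to restrain receptor kinases, had 29, 42 and 26 counts in LX2 with HCCLM3, against 61, 128 and 113 counts in LX2 alone (log2 fold change -1.75, SE 0.37, adjusted p = 0.0136). SOS1, the exchange factor that activates RAS, averaged 6.67 ± 0.217 FPKM in LX2 with HCCLM3 and 5.24 ± 0.142 FPKM in LX2 alone (log2 fold change 0.32, adjusted p = 0.00226). In HCCLM3 the fall of SOS1 (log2 fold change -0.40, adjusted p = 0.0355) and the rise of the kinase ERK1, encoded by MAPK3 (0.48, adjusted p = 0.0446), did not hold throughout. SOS1 was lost without any library but replicate 1 of HCCLM3 alone, and so was MAPK3 (highest adjusted p 0.115 and 0.137). The LX2 falls of NRAS (log2 fold change -0.12) and PTPN11 (-0.10) were small and were lost without any replicate of LX2 with HCCLM3 or replicate 1 of LX2 alone, NRAS also without replicate 3 of LX2 alone (highest adjusted p 0.0614 and 0.0696).

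Transcripts known to be induced by FGF and ERK signalling moved in both directions: 1 of 17 tested rose and 5 fell in HCCLM3 (median log2 fold change -0.13), and 4 of 16 rose and 4 fell in LX2 (median 0.12). DUSP5, a phosphatase that acts on nuclear ERK, averaged 25.9 ± 0.411 FPKM in HCCLM3 with LX2 and 37.6 ± 1.67 FPKM in HCCLM3 alone (log2 fold change -0.70, SE 0.07, adjusted p = 0.00127). In LX2 it averaged 14.8 ± 0.648 FPKM with HCCLM3 and 5.45 ± 0.504 FPKM alone (log2 fold change 1.41, SE 0.08, adjusted p = 6.48e-05). The transcription factor EGR1 also fell in HCCLM3 (7.94 ± 0.0602 against 18.0 ± 1.52 FPKM) and rose in LX2 (40.3 ± 0.819 against 24.3 ± 0.606 FPKM). Between the lines the changes of DUSP5 and EGR1 differed by -2.14 (SE 0.10, adjusted p = 3.64e-07) and -2.09 (SE 0.10, adjusted p = 4.11e-07) on the log2 scale. The Sprouty genes SPRY2 and SPRY4, feedback inhibitors of receptor signalling, moved opposite to DUSP5 in the line where each was called. SPRY2 in HCCLM3 (log2 fold change -0.30) and SPRY1 in LX2 (0.84) lay in the direction of DUSP5 and were not called. FOSL1 fell in HCCLM3 (log2 fold change -0.85, adjusted p = 0.00229) and was not called in LX2 (0.32). PHLDA1 rose in LX2 (1.01, adjusted p = 9.5e-05) and was not called in HCCLM3 (-0.38). DUSP4 was called down in HCCLM3 (-0.36) and up in LX2 (0.35), and CCND1 down in both lines (-0.30 and -0.51). ETV4 (-0.29) and IL17RD (-0.95) were called down in LX2. In HCCLM3, DUSP6 (-0.11), ETV4 (-0.13), ETV5 (0.19) and SPRY1 (0.27) were not called. DUSP4, CCND1, IL17RD and these 4 genes were picked for naming after their values were seen. SPRY2 averaged 3.49 ± 0.200 FPKM in LX2 with HCCLM3 and 11.6 ± 0.549 FPKM in LX2 alone (log2 fold change -1.77, SE 0.07, adjusted p = 1.3e-05). SPRY4 averaged 6.06 ± 0.638 FPKM in HCCLM3 with LX2 and 3.61 ± 0.253 FPKM in HCCLM3 alone (log2 fold change 0.58, SE 0.10, adjusted p = 0.00941).

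In the bile acid axis that FGF19 controls in liver, 8 of 13 genes were tested in HCCLM3 and 2 fell. CYP27A1, an enzyme of the acidic pathway of bile acid synthesis, averaged 29.2 ± 2.40 FPKM with LX2 and 44.2 ± 3.13 FPKM alone (log2 fold change -0.76, SE 0.10, adjusted p = 0.00391). ABCB11, the bile salt export pump, had 18, 42 and 36 counts with LX2, against 84, 87 and 141 counts alone (adjusted p = 0.0301), and this call was lost without any of the 6 libraries (adjusted p 0.0503 to 0.0870). In LX2, CYP27A1 was called up at 0.299 ± 0.0410 FPKM with HCCLM3 and 0.126 ± 0.0371 FPKM alone (adjusted p = 0.0229). RNA carried over from HCCLM3 at the highest share above would add 0.302 FPKM, where the difference was 0.172 FPKM, and its part in the call was not tested. That call was also lost without replicate 2 or 3 of LX2 with HCCLM3 or replicate 1 or 3 of LX2 alone (highest adjusted p 0.0736).

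**Figure D4:**
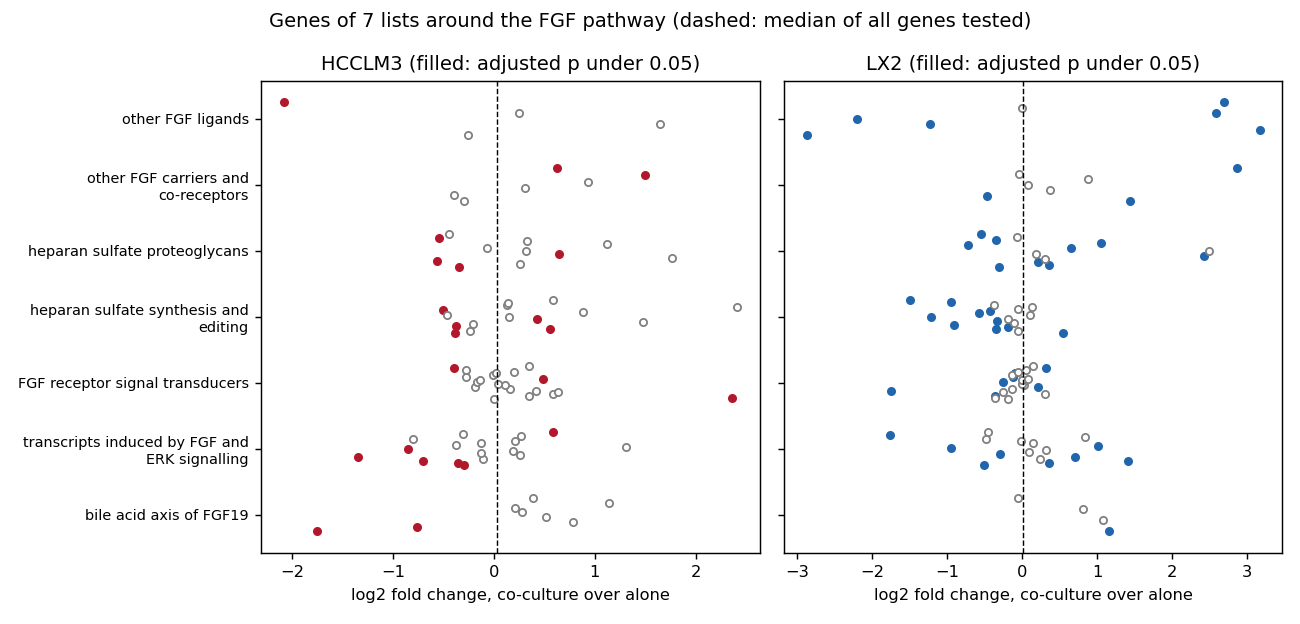
Log2 fold change with co-culture of every tested gene of the 7 lists in HCCLM3 (left) and LX2 (right), filled where the adjusted p was under 0.05, with the median of all genes tested as a dashed line. In LX2, 44 of 84 genes are filled, and the heparan sulfate enzymes lie mostly left of the line; in HCCLM3, 23 of 81 genes are filled.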

How the data were processed

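Libraries were made from polyadenylated RNA and read from both ends, per the labels' protocols. Bowtie 0.12.2, HISAT2 2.0 and StringTie 1.3.0 are named in the submitters' processing notes without a role, beside a mouse build, although the deposited gene identifiers are human. Raw counts and FPKM values per gene and library were deposited by the authors, per the file headers, in a table for each line of 60612 genes for HCCLM3 and 32507 for LX2. Each row of the LX2 table had a count in LX2, so a missing row was read as 0 counts. The FPKM values deposited by the authors summed to 313706 to 335476 per library of HCCLM3 and 266772 to 271937 of LX2, and levels across lines are a description only. The coordinates of FGFBP1 equal those of RefSeq on GRCh38.p14, and the tables' positions were taken as GRCh38.

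Counts were tested with edgeR 4.0.16 (R 4.3.3): filterByExpr (minimum count 10, minimum total 15), TMM scaling, the quasi-likelihood test of co-culture against growth alone per line, and the difference of these changes over all 12 libraries. A gene was called where its two-sided p, adjusted by Benjamini-Hochberg over all genes tested, was under 0.05. Folds and log2 fold changes are co-culture over alone, from this fit on scaled counts, so they can differ from ratios of FPKM means. In HCCLM3 the median log2 fold change of all genes was 0.033 with TMM scaling and 0.21 with library totals. Groups and replicate numbers came from the labels, which leave unsaid whether replicates were separate cultures. The p-values thus speak of spread among these libraries only, and that spread may be technical. The separation of the lines after co-culture is not described in the labels. The 9 genes, the gene lists and the marker lists were chosen with earlier results of these data known. From each list the called genes with the smallest p, up to 4 per line, are named. Profiles were compared by Euclidean distance of log2(CPM + 0.5), centred on the mean, among genes with a mean of at least 1 FPKM in a group. Promoter windows are RefSeq's. Alternatives were DESeq2 1.42.0, limma 3.58.1 on log2(FPKM + 1) and log2(FPKM + 0.1), other scalings, no filter, a replicate block, leaving out each library, and, chosen after seeing the data, counts divided by 4. The edgeR procedure was tested on simulated data. Tables were handled in Python 3.11.15 with NumPy 2.4.6 and pandas 2.3.3.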

Additional observations from a re-analysis of the deposited data

Results flagged for a closer look

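For DUSP4 and 22 other genes named above, the co-culture change in HCCLM3 minus that in LX2 was called over all 12 libraries. The edgeR quasi-likelihood test of the difference gave these calls, and each value below is that difference on the log2 scale. Over the 7 related lists the test called 14 genes up and 15 down of 94 tested, where 20.7% of all genes tested were called. Those not named above are not listed. ABCB11, also called, is left out because LX2 alone had no count. FGFBP1 (-2.68) and FGFR4 (-0.52) were chosen with both changes known, so these values are a description. Among other FGF family genes, carriers and co-receptors the values were 4.49 for FGF11, 1.51 for FLRT2 and -2.27 for FLRT3. That of FGF11 was no longer called without replicate 2 of HCCLM3 with LX2, replicate 1 or 2 of LX2 with HCCLM3, or replicate 1 of LX2 alone (highest adjusted p 0.0585). The part of RNA carried over from HCCLM3 in the LX2 change of FLRT3 was not tested.

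Of the 13 heparan sulfate proteoglycans tested, 2 were called up and 2 down. The differences of those called and named were -0.51 for SDC4, -0.81 for GPC1 and 0.62 for SDC1. Of the 18 heparan sulfate enzymes tested, 6 were called up and 2 down. For those called and named the differences were -0.96 for EXT1, -0.64 for HS6ST1, 0.88 for EXTL2, 2.05 for SULF2 and 0.68 for GLCE. EXT1 fell in HCCLM3 and rose in LX2. The GLCE difference was no longer called in 6 of the 12 fits that left out 1 library, those without replicate 1 of either HCCLM3 group, replicate 2 or 3 of LX2 with HCCLM3, or replicate 1 or 2 of LX2 alone (highest adjusted p 0.0761).

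Of the 20 signal transducers tested, 2 were called up and 2 down, with differences for those called and named of -0.75 for SOS1 and 2.13 for GRB14. Of the 17 transcripts induced by FGF and ERK signalling that were tested, 2 were called up and 5 down. Those called and named had -2.09 for EGR1, -2.14 for DUSP5, -0.74 for DUSP4, -1.20 for FOSL1, 1.01 for SPRY4, 1.43 for SPRY2 and -1.42 for PHLDA1. EGR1, DUSP5 and DUSP4 fell in HCCLM3 and rose in LX2. FOSL1 was called only in HCCLM3, where it fell, and PHLDA1 only in LX2, where it rose. The difference for CYP27A1 was -1.96, and the part of RNA carried over from HCCLM3 in its LX2 change was not tested.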

How the results depend on the processing

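No log2 fold change that was called turned its sign under an alternative. In HCCLM3, library totals gave 2977 genes up and 1039 down, limma 3104 and 1106 with a pseudocount of 1, and 3146 and 1110 with 0.1. The related lists then held 15 up and 7 down, 16 and 7, and 15 and 7. Library totals gave 1588 genes with a lower difference between the lines. In LX2, 5 of the 9 genes were called with DESeq2 and 5 with counts divided by 4, FGFR3 and FGFR4 being added, and 17 related genes fell with limma at a pseudocount of 1. By counts, FGFR4 made up 89.1% of the receptors in HCCLM3 alone and 24.2% in LX2 with HCCLM3, and FGFR1 75.1% in LX2 alone. Leaving out each library gave 1918 to 2928 calls in HCCLM3 (821 to 1331 up, 1097 to 1597 down), 4934 to 5209 in LX2 (2325 to 2517 up, 2594 to 2692 down) and 3580 to 4438 in the difference (1557 to 2044 up, 2002 to 2394 down). Of the 9 genes it gave 3 in HCCLM3, 3 to 4 in LX2 and 2 to 3 in the difference. Of the related genes it gave 3 to 9 up and 7 to 12 down in HCCLM3, 14 to 16 up and 14 to 20 down in LX2, and 11 to 18 up and 14 to 16 down in the difference. The library whose omission left the fewest HCCLM3 calls was replicate 3 of HCCLM3 with LX2. With the replicate number as a block, 3315 genes were called in HCCLM3, 4795 in LX2 and 4439 in the difference, 16 related genes fell in LX2, and FGFR1 in LX2 was no longer called. Same-numbered libraries correlated at 0.0171 to 0.0452 in HCCLM3, each best with its own number, and at -0.0408 to 0.0115 in LX2, so the numbers were not taken to pair them. The cause of these shifts was not tested. Low counts limit FGF5, FGF19, KLB, FGFR1 in HCCLM3 and FGFBP1 in LX2.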
